A study of Mus musculus with 86 samples.

Results

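The loci of Ctcf and Ctcfl, the mouse genes for the chromatin protein CTCF and its germline relative, were described by the SOX2 and CTCF binding sites called around them in asynchronous and mitotic mouse embryonic stem cells. Every called peak within 50 kb of either gene body was taken, which gave 118 of the 327957 intervals in 8 peak lists. Merging the overlapping peaks of the 2 asynchronous libraries of a factor gave 37 regions found in both of them, of 109664 such regions genome-wide. The Ctcf window held 11 CTCF and 9 SOX2 regions, and the Ctcfl window held 12 CTCF and 5 SOX2 regions. In the text the regions of each factor are numbered from left to right within a window.

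The cells were embryonic stem cells of strain 129S5/SvEvBrd, a self-renewing line grown on gelatin in serum with leukemia inhibitory factor. Asynchronous cultures were untreated, while mitotic cells had 100 ng/ml nocodazole, a drug that blocks the spindle, for 6 h and were then shaken off the dish. Chromatin immunoprecipitation with sequencing (ChIP-seq) used antibody AF2018 for SOX2 and ab70303 for CTCF, with 2 libraries per factor and condition. No allele or genotype besides the strain was given for any group, and the labels do not say whether replicates were separate cultures. P-values therefore measure only the spread between these libraries, which may be technical. The cell type was not checked against marker genes, since peak lists hold no expression values.

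CTCF is a DNA-binding protein with a row of zinc fingers that marks insulators and, together with the cohesin ring, the anchors of chromatin loops. CTCFL, also called BORIS, has a closely similar zinc finger domain and is normally made in the male germline. SOX2 is a transcription factor of the pluripotency network, the circuit that keeps embryonic stem cells able to form all tissues. In mitosis chromosomes condense, loops dissolve and many such factors leave part of their sites.

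Ctcf (gene 13018) lies on chromosome 8 at chr8:105636474-105682922 on GRCm38, the assembly of mm10, and Ctcfl (gene 664799) on chromosome 2 at chr2:173093609-173119525. The Ctcf gene is 46.4 kb long, and its 146 kb window held 7 other protein-coding genes: Ripor1, Carmil2, Acd, Pard6a, Enkd1, 4933405L10Rik and Gfod2. The Ctcfl gene is 25.9 kb long, and its 126 kb window held the coding genes Gm40011, a predicted gene whose body spans all of Ctcfl, and Pck1, the enzyme that commits carbon to gluconeogenesis. The gene table gave outer boundaries only, so exons, introns and untranslated regions were not told apart, and a region is called left or right of a gene by coordinate.

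Sequence is shown before 2 starts under a CTCF region in the Ctcf window, those of the protein-coding genes Ctcf and Ripor1, to place the summits described further on. The noncoding gene Gm5914 has 2 starts under the same region as Ctcf, with 1 match before 1 of them, and is not shown. The sequences come from RefSeq on GRCm38.p6, both on the plus strand and written 5′ to 3′, with the match to AGGNGGC in capitals. AGGNGGC is a variant of the inner part of the CTCF consensus, searched on both strands. It allows any base at N, where the consensus searched here has G or T. At the base before N it allows G only, where the consensus has A or G. It appears here as its reverse complement. Read on the other strand, the match before Ctcf has C at N, which the consensus does not allow, and that before Ripor1 has G. The Ctcf sequence, chr8:105636288-105636473, ends at the last base before the annotated gene. The Ripor1 sequence, chr8:105604979-105605228, lies before a transcript start inside the Ripor1 gene.
Ctcf: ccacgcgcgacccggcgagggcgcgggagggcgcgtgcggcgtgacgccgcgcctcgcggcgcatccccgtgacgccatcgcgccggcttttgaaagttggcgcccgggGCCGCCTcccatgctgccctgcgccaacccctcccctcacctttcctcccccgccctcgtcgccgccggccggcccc
Ripor1: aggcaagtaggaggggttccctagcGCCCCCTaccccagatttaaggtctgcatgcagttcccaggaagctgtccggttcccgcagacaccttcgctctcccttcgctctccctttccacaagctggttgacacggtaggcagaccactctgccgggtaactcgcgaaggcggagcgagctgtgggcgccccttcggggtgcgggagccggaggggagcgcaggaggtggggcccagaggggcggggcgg

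The match before Ctcf, at chr8:105636397-105636403, was 455 to 472 bp from the CTCF summits of the region over it, so it was not under them. The match before Ripor1, at chr8:105605004-105605010, was 40 to 79 bp from the summits of CTCF region 2 of the Ctcf window. AGGNGGC occurred in 29.4% of all 32851 RefSeq promoters of 300 bases. The SOX2 core CATTGT, found in neither of the whole promoters shown, occurred in 12.6%, and the full CTCF core consensus in 0.557%. Of 17 promoters in both windows, 5 promoters of 4 genes lay under a CTCF region and 0 of these held the full consensus.

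Depth was close between conditions for each replicate number but differed between the SOX2 replicates. Depth estimated from the local background was 3.36 and 3.71 reads per 100 bp in the asynchronous CTCF libraries and 3.62 and 3.77 in the mitotic ones. In SOX2 it was 2.48 and 1.61 in asynchronous and 2.62 and 1.64 in mitotic libraries, so replicate 2 was the shallower in both conditions. Genome-wide, CTCF had 68328 and 67995 called peaks in asynchronous cells and 20142 and 15338 in mitotic cells. The SOX2 lists went from 90266 and 63504 peaks to 1976 and 408.

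Around Ctcf and Ctcfl many CTCF peaks were called again in mitotic cells, while SOX2 peaks were nearly all missing from the mitotic lists. The 2 windows together held 25 and 29 CTCF peaks in the asynchronous libraries and 14 and 10 in the mitotic ones. Both mitotic counts were below both asynchronous counts, and the mitotic mean was 44.4% of the asynchronous mean, against 26.0% genome-wide. For SOX2 the windows held 23 and 16 asynchronous peaks and 1 and 0 mitotic peaks. The mitotic mean was 2.56% of the asynchronous mean, against 1.55% genome-wide. Within 10 kb of the genes the SOX2 ratio was 0.111. A two-sided exact permutation test gave p = 0.333 for either factor, the smallest value that 2 libraries against 2 allow, so the design could not reach a p of 0.05. Without mitotic SOX2 replicate 1, which held the single mitotic SOX2 peak, the windows had 0 mitotic SOX2 peaks.

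**Figure D1:**
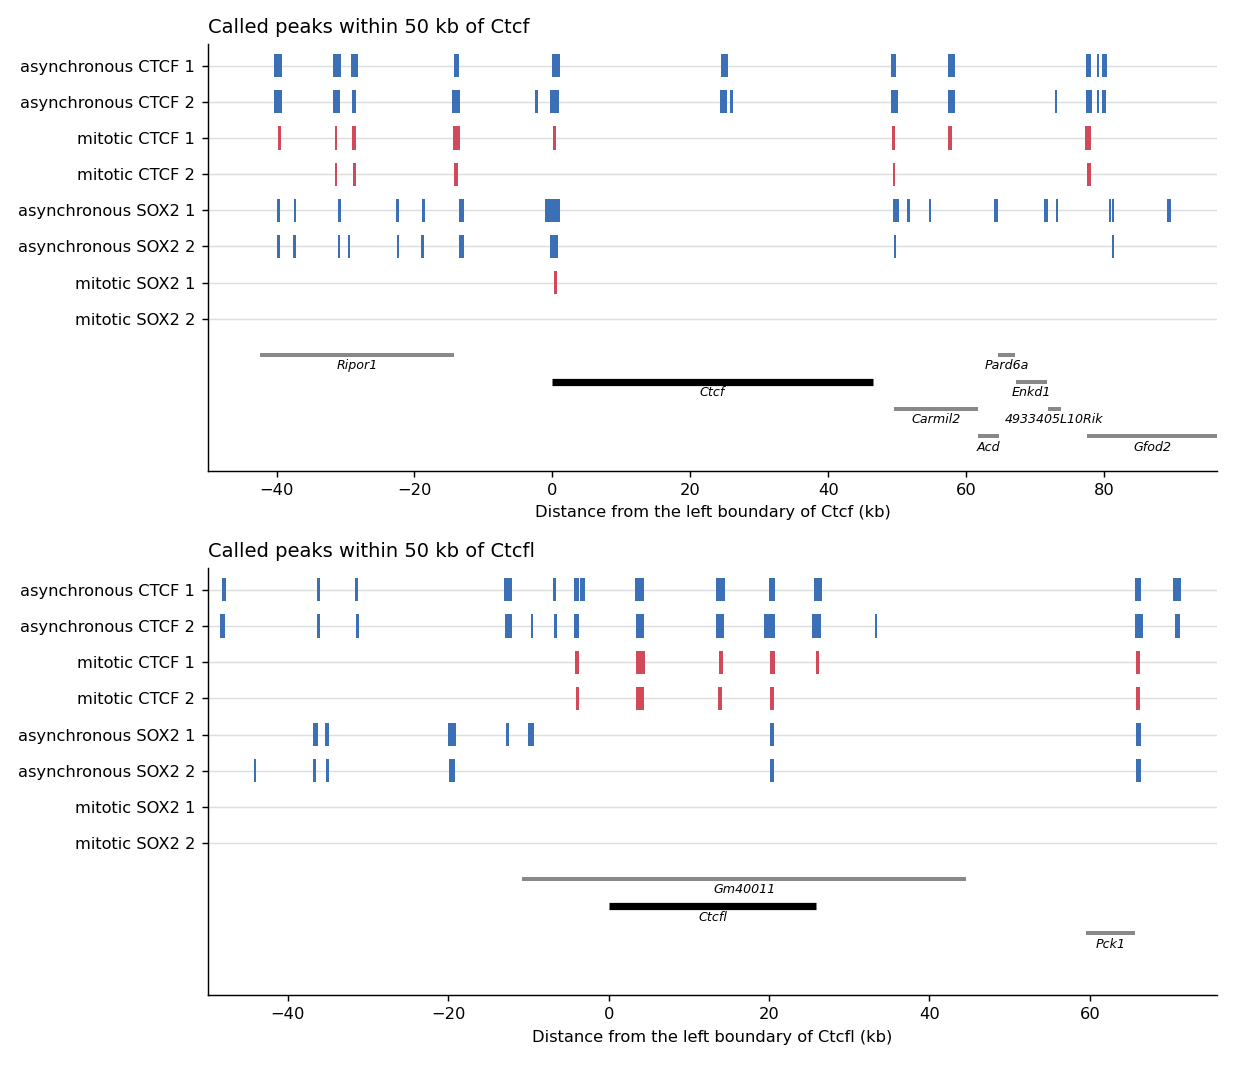
Called peaks (bars, with the narrowest widened to stay visible) in each of the 8 libraries by distance in kb from the left boundary of Ctcf (top) and Ctcfl (bottom), with asynchronous libraries in blue, mitotic libraries in red, the named gene in black and other protein-coding genes in gray. CTCF peaks recur in the mitotic libraries of both windows, and the 1 mitotic SOX2 peak lies at the left end of Ctcf.

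The peaks fell unequally on the 2 genes. In the Ctcf window there were 11 and 14 asynchronous CTCF peaks and 8 and 5 mitotic ones, and 16 and 10 asynchronous SOX2 peaks and 1 and 0 mitotic ones. In the Ctcfl window there were 14 and 15 asynchronous CTCF peaks and 6 and 5 mitotic ones, and 7 and 6 asynchronous SOX2 peaks and 0 mitotic ones in either library. In every one of these sets the mitotic counts lay below the asynchronous counts. No mitotic peak of either factor in the windows lay outside the asynchronous regions. The 19 asynchronous peaks outside the regions, each called in 1 library, had deposited folds of 2.1 to 4.12.

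By regions, 8 of 11 CTCF regions around Ctcf (72.7%, Wilson 95% interval 43.4 to 90.3%) were called in mitotic replicate 1 and 5 of 11 (45.5%, interval 21.3 to 72.0%) in replicate 2. The same shares over all CTCF regions were 33% and 25.4%. The mean over the 2 mitotic libraries was 59.1% ± 19.3 (SD, n = 2). The intervals are wide with so few regions, they cover counting error only, and that of replicate 2 includes its genome-wide share. Around Ctcfl, 6 of 12 CTCF regions (50%, interval 25.4 to 74.6%) were called in mitotic replicate 1 and 5 of 12 (41.7%, interval 19.3 to 68.0%) in replicate 2, with a mean of 45.8% ± 5.89 (SD, n = 2). Within 10 kb the order of the genes was the other way, with a mean of 75% over 6 regions at Ctcfl and 50% over 3 at Ctcf. Both Ctcfl intervals in the 50 kb window include the genome-wide share of their library. They also overlap those of Ctcf, and the difference between the 2 genes was not tested.

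Counted by region, 5 of 11 CTCF regions at Ctcf had a peak in both mitotic libraries, 3 in 1 and 3 in neither. At Ctcfl the counts were 5, 1 and 6 of 12. Genome-wide, 24.5% of CTCF regions were called in both, 9.47% in 1 and 66% in neither. Among the 5024 protein-coding genes with at least 10 CTCF regions within 50 kb, the median share called in both was 25%. A share as high as that of Ctcf (45.5%) was met by 11.5% of them, and one as high as that of Ctcfl (41.7%) by 14.6%. At least 5 CTCF regions called in both mitotic libraries were found in 7.11% of the 21887 windows of protein-coding genes.

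SOX2 regions were seldom called. At Ctcf, 1 of 9 SOX2 regions (11.1%, interval 1.99 to 43.5%) was called in mitotic replicate 1. In replicate 2, 0 of 9 were called (interval 0 to 29.9%). At Ctcfl, 0 of 5 were called in either library (interval 0 to 43.4%). For a count of 0 a rougher limit, taken as 3 divided by the number of regions, was 33.3% at Ctcf and 60% at Ctcfl. Genome-wide, 3.37% of SOX2 regions were called in mitotic replicate 1 and 0.755% in replicate 2, with 0.675% called in both, 2.77% in 1 and 96.6% in neither. Within 10 kb of Ctcf, where 2 SOX2 regions lay, the mean over both libraries was 25% in place of 5.56%. At these numbers a SOX2 share at the genome-wide level could not have been told from 0. Over both windows the mean share of regions called was 52.2% for CTCF and 3.57% for SOX2, a difference of 48.6 percentage points. Genome-wide the same means were 29.2% for CTCF and 2.06% for SOX2. In the windows both CTCF libraries lay above both SOX2 libraries, with p = 0.333 by a two-sided exact permutation test, the smallest possible. The regions also differed in strength, the mean percentile of their fold in both asynchronous lists. Its median was 82.3 for CTCF in the windows, against 57.7 for all CTCF regions. For SOX2 it was 35.1, against 61.3 for all SOX2 regions. The part of strength in the difference was not tested.

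**Figure D2:**
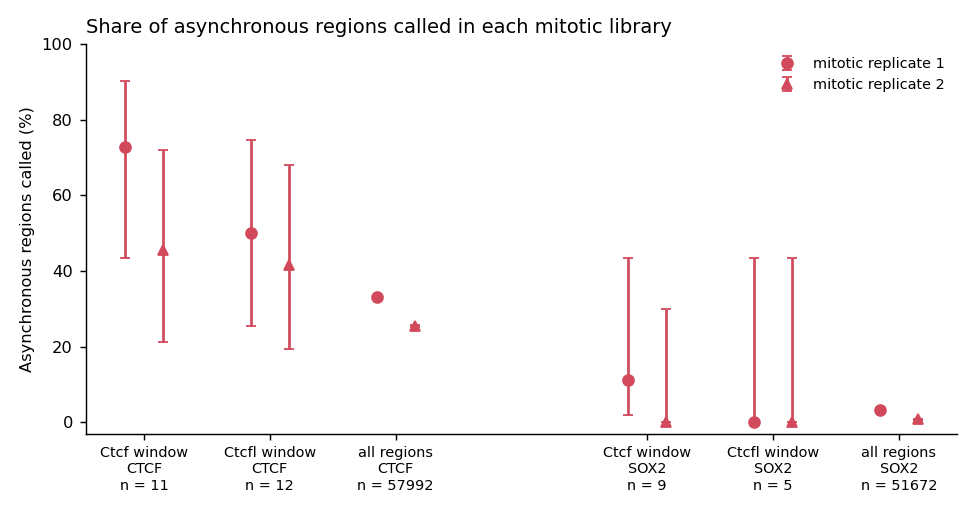
Percent of the asynchronous regions of each window called in mitotic replicate 1 (circles) and replicate 2 (triangles), with Wilson 95% intervals, beside all regions genome-wide; n is the number of regions. CTCF shares lie between 41.7 and 72.7% in the 2 windows, and SOX2 shares between 0 and 11.1%.

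The strongest site at either locus lay inside Ctcfl. CTCF region 7, chr2:173096900-173098071, begins 3.29 kb from the left boundary of Ctcfl and also lies within Gm40011. Its deposited fold, the coverage at the summit over the local background, was 34.4 and 36.3 in the asynchronous libraries and 35.2 and 25.1 in the mitotic ones. By fold it was number 42 of 68328 and 15 of 67995 peaks in the asynchronous lists and number 9 of 20142 and 15 of 15338 in the mitotic lists. It thus stood near the top of all 4 lists, though ranks in lists of unequal length do not show a change. The reads at its summit, recovered from the deposited fold and p, were 315 and 301 in asynchronous and 300 and 251 in mitotic cells. Mitotic replicate 1 lay within 1 read of asynchronous replicate 2, and mitotic replicate 2 was lowest. These reads were not scaled for depth and do not measure a change. The estimated depth was 3.36 and 3.71 reads per 100 bp in the asynchronous and 3.62 and 3.77 in the mitotic CTCF libraries. Among all 57992 CTCF regions it was number 12 by strength, the mean percentile of its fold in both asynchronous lists. Of 12367 protein-coding genes with a CTCF region in the body, 12 had one as strong, Ctcfl included. Overlapping genes can share a site in this count, as Ctcfl and Gm40011 share this one.

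The other CTCF regions touching Ctcfl were of middle to high strength. Region 9, chr2:173113370-173114321, had folds of 9.55 and 13.5 in asynchronous and 9.58 and 7.43 in mitotic cells. Region 8, chr2:173107052-173108077, had folds of 7.18 and 10.4, and 6.31 and 4.20. Region 10, chr2:173118997-173120190, lay over the right boundary of Ctcfl with folds of 14.3 and 9.19 in asynchronous cells. It was called in mitotic replicate 1 alone, with a fold of 2.88 and 27 reads at the summit, against 169 and 117 in asynchronous cells. Of the 4 regions touching the Ctcfl body, 3 were therefore called in each mitotic library and region 10 in a single one. Genome-wide, 24.5% of CTCF regions were called in both. Ranked by strength into 10 equal classes, where 10 is the strongest, region 8 was in class 7. Regions 9 and 10 were in class 9, and region 7 in class 10. Of all CTCF regions in these classes, 30.5%, 63.1% and 80.3% were called in both.

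Outside the Ctcfl body, the calls lay close to the gene or at Pck1. Region 6, chr2:173089240-173089925, was 3.68 kb to the left, with folds of 10.1 and 12.3 in asynchronous and 7.71 and 6.02 in mitotic cells. Region 11, chr2:173159253-173160291, at the right end of Pck1, had folds of 9.71 and 10.6, and 5.27 and 3.04. Both were called in each mitotic library.

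Region 4 of the Ctcfl window, chr2:173080579-173081531, 12.1 kb left of the gene and 1249 bp from Gm40011, went the other way. Its folds of 13.4 and 14.8 were close to the strongest at Ctcf, and 126 and 135 reads lay at its summit. It was nonetheless in neither mitotic list. Of all CTCF regions in its strength class, the strongest of 10 equal classes, 9.59% were called in neither. Region 12, chr2:173163975-173164961, 4701 bp beyond Pck1, with folds of 8.18 and 11.5, was also called in neither. The other regions called in neither around Ctcfl were weak: region 1, 47.7 kb from the gene, had folds of 6.65 and 4.59, and regions 2, 3 and 5 had folds of 3.01 to 5.19.

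At Ctcf neither CTCF region touching the gene body was called in both mitotic libraries. CTCF region 5, chr8:105636149-105637616, covers the left boundary and the RefSeq transcript start at 105636538. Its folds were 13.7 and 15.6 in asynchronous cells and 3.26 in mitotic replicate 1, and it was not called in mitotic replicate 2. The reads at its summit were 237 and 213 in asynchronous cells and 54 in mitotic replicate 1. It was the strongest CTCF region in the Ctcf window and still called only once in mitosis, whereas 80.3% of all CTCF regions of its strength class were called in both mitotic libraries. CTCF region 6, chr8:105660762-105661883, in the middle of Ctcf, had folds of 8.03 and 9.73 with 92 and 96 reads and was called in neither. In the strength class of region 6, class 8 of 10, 46.6% of all CTCF regions were called in both. Thus 0 of the 2 CTCF regions touching Ctcf had a peak in each mitotic library, while 5 of 9 outside the body did, against 24.5% of all CTCF regions. The counts are too small to compare Ctcf with Ctcfl, and no test was made.

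The CTCF sites around Ctcf with a peak in each mitotic library lay at or in neighboring genes. Region 9, chr8:105713837-105714764, at the left end of Gfod2, a gene with an oxidoreductase domain, had folds of 14.3 and 12.5 in asynchronous and 12.1 and 7.6 in mitotic cells. Region 4, chr8:105621942-105623024, at the right end of Ripor1, had folds of 14.5 and 12.5, and 7.51 and 6.27. These 2 had the highest mitotic folds of the window. Region 7, chr8:105685511-105686652, 2.59 kb right of Ctcf at the left end of Carmil2, a regulator of actin capping, had folds of 11.5 and 16.0, and 3.58 and 3.23. Region 2, chr8:105604584-105605885, over the Ripor1 start whose sequence is given above, had folds of 14.5 and 10.7, and 4.77 and 4.56. Region 3, chr8:105607244-105608252, also in Ripor1, had folds of 8.43 and 9.31, and 4.42 and 3.48. All 5 had lower mitotic than asynchronous folds in these separately called lists, which is a description of the lists and not a measure of change.

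Besides region 5, a pair of regions in the Ctcf window was called in mitotic replicate 1 alone. Region 1, chr8:105596126-105597294, in Ripor1, had folds of 12.2 and 12.8 in asynchronous cells and 3.28 in mitotic replicate 1, where its summit lay 358 bp from the nearer asynchronous summit. Region 8, chr8:105693783-105694918, in Carmil2, had folds of 5.70 and 6.29, and 3.66. Regions 10 and 11, both in Gfod2, were called in neither, with folds of 3.38 and 2.91 and of 6.85 and 5.28.

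**Figure D3:**
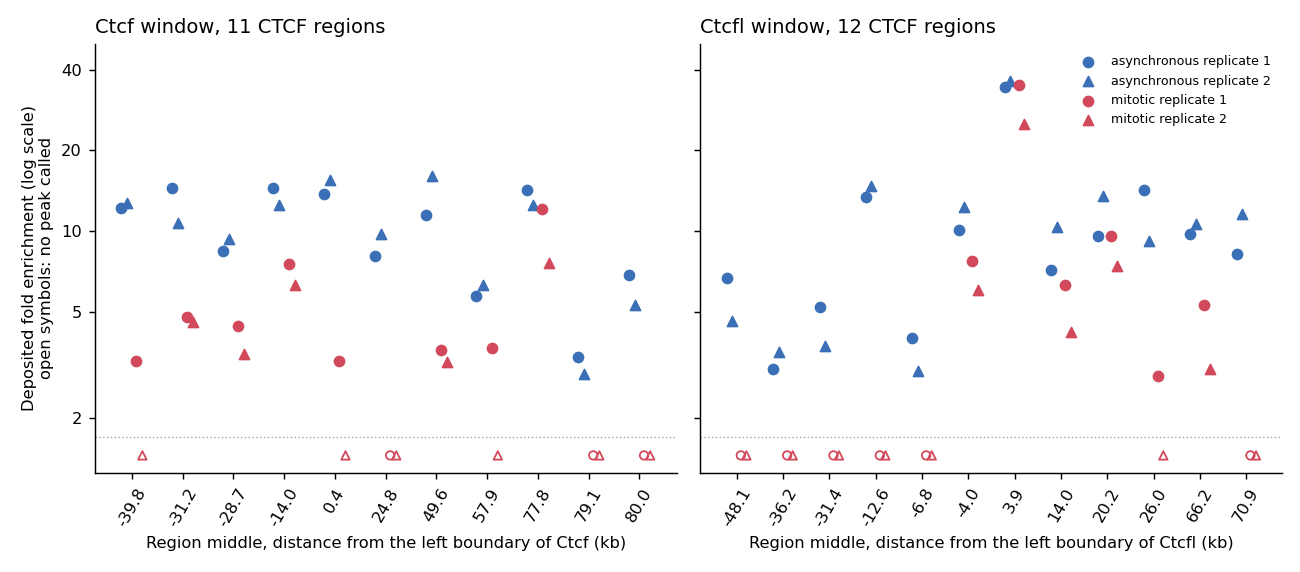
Deposited fold enrichment (log scale) of each CTCF region in the Ctcf (left) and Ctcfl (right) windows, by the distance of its middle in kb from the left boundary of the gene, for the 2 asynchronous (blue) and 2 mitotic (red) libraries; open symbols under the dotted line mark regions with no peak in that mitotic library. The region in Ctcfl with folds of 25.1 to 36.3 stands above all others, and the region at the left boundary of Ctcf has 1 mitotic peak, with a fold of 3.26.

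CTCF summits mostly kept their place, apart from the 358 bp at region 1 of the Ctcf window. The summits of the 2 asynchronous libraries were a median of 13 bp apart over the 23 CTCF regions of both windows, against 22 bp over all CTCF regions. In the 14 regions called in mitotic replicate 1, the mitotic summit was a median of 15 bp from the nearer asynchronous one, and in the 10 of replicate 2 it was 13.5 bp. Both genome-wide medians were 15 bp, so the members did not stand out.

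The CTCF regions with a peak in each mitotic library were among the stronger ones of both windows, though not in step with strength. By class, 1 of 1 region in class 7, 1 of 3 in class 8, 3 of 4 in class 9 and 5 of 8 in class 10, the strongest, were called in both. Of the 11 CTCF regions around Ctcf, 6 were in the strongest of the 10 classes. Of these 6, 4 had a peak in both mitotic libraries and 2 in 1. Around Ctcfl 2 of 12 were in that class, region 7, called in both, and region 4, called in neither. Over both windows 8 of 23 regions (34.8%) were in this class, 1 of 10 classes of equal size. The 7 regions in the weakest 5 classes included 0 called in both mitotic libraries, and the share called in both rose genome-wide from 5.69% in class 5 to 30.5% in class 7, 46.6% in class 8, 63.1% in class 9 and 80.3% in class 10. The higher share of CTCF calls in the windows came with a higher share of strong regions, and its part in the result was not tested.

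**Figure D4:**
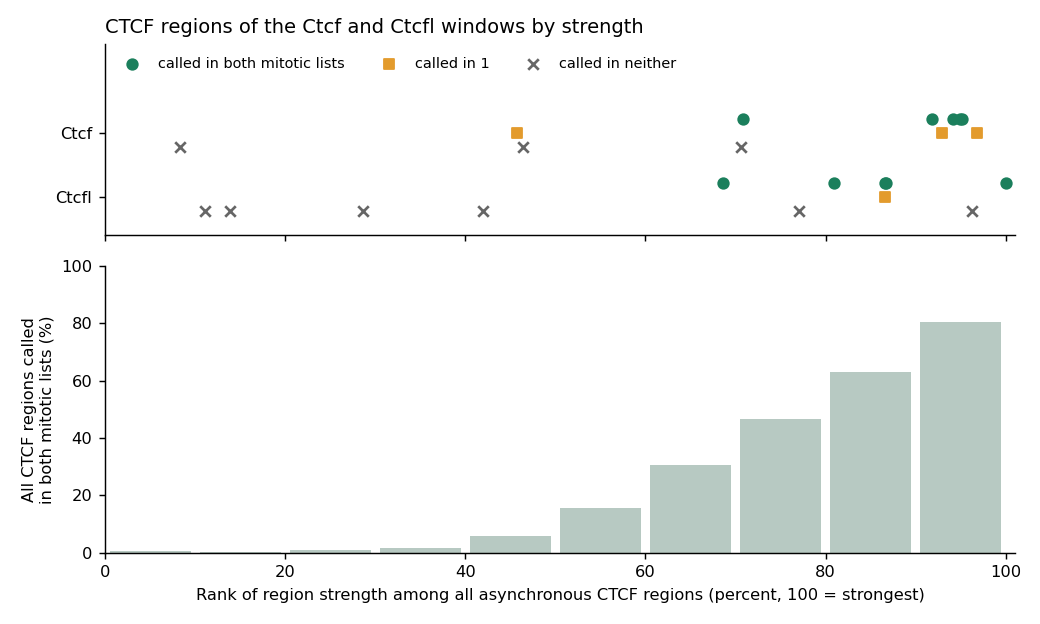
Top, the 23 CTCF regions of the Ctcf and Ctcfl windows by the rank of their strength among all asynchronous CTCF regions (percent, 100 is strongest), with symbols for regions called in both mitotic lists, 1 or neither. Bottom, percent of all CTCF regions called in both mitotic lists in each of the 10 classes (bars); regions of the windows called in both lie in the upper part of the scale, where the bars reach 80.3%.

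The single mitotic SOX2 call was at the start of Ctcf. SOX2 region 7, chr8:105635390-105637639, had folds of 3.27 and 3.93 in asynchronous cells and 3.58 in mitotic replicate 1, with no peak in mitotic replicate 2. The reads at the summit were 74 and 43 in asynchronous cells and 38 in mitotic replicate 1. By strength SOX2 region 7 was in class 2 of 10, where 10 is the strongest. It covers CTCF region 5 in full. The asynchronous SOX2 summits lay 186 and 178 bp before the transcript start, within the Ctcf sequence printed above, while the mitotic SOX2 summit lay 355 bp after it. The CTCF summits there were 331 and 334 bp after the start in asynchronous cells and 317 bp in mitotic replicate 1. The mitotic SOX2 summit was therefore 21 bp from the nearest asynchronous CTCF summit and 533 bp from the nearer asynchronous SOX2 summit, whereas the asynchronous SOX2 summits came no closer than 509 bp to one. It rests on 1 peak of 1 library.

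Among all 896 SOX2 regions that overlapped a CTCF region and had a peak in mitotic replicate 1, the mitotic SOX2 summit was a median of 259 bp from the nearest asynchronous CTCF summit, and 18.5% lay within 50 bp. The asynchronous SOX2 summits of the same regions were nearer, at a median of 193.5 bp with 24.4% within 50 bp, so the order at Ctcf was the reverse of that of the medians. The median distance to the asynchronous SOX2 summit was 48 bp, and 8.71% lay 500 bp or more away, as at Ctcf. SOX2 regions at the end of a protein-coding gene that overlapped a CTCF region were called in mitotic replicate 1 in 15.6% of 3368 cases, against 3.37% of all SOX2 regions.

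The other SOX2 sites were found in asynchronous cells only. The strongest, SOX2 region 6 of the Ctcf window, chr8:105622913-105623646, lay 694 bp from the right end of Ripor1 with folds of 7.16 and 13.9 and 90 and 70 reads at the summit. In its strength class, the second strongest of 10, 93.6% of all SOX2 regions were called in neither mitotic library. SOX2 regions 9, in Gfod2, and 2, in Ripor1, had folds of 3.96 and 3.48 and of 3.0 and 4.61. The other SOX2 regions around Ctcf, 1, 3, 4, 5 and 8, had folds of 2.21 to 4.54. At Ctcfl the strongest, SOX2 region 3, chr2:173073540-173074550, 19059 bp left of the gene, had folds of 6.68 and 5.78. SOX2 region 4, chr2:173113713-173114250, inside Ctcfl, had folds of 5.26 and 5.03 and shared all of its 538 bp with CTCF region 9, which was called in both mitotic libraries. SOX2 region 2 had folds of 3.32 and 6.89, region 5 at the right end of Pck1 4.38 and 4.03, and region 1 2.30 and 3.09.

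SOX2 and CTCF often shared ground here. Of the 14 SOX2 regions in both windows, 8 (57.1%) overlapped a CTCF region, against 20.3% of all SOX2 regions. Of the 23 CTCF regions, 8 (34.8%) overlapped a SOX2 region, against 18.3%. Of these 8 CTCF regions, 5 had a peak in each mitotic library and 2 in 1 of them, while of the 8 SOX2 regions 1 was called in a single library. Genome-wide, 24.5% of all CTCF regions were called in both, and 80.3% of those in class 10. That class holds the overlapping CTCF regions 1, 2, 4, 5 and 7 of the Ctcf window. Of all SOX2 regions 2.77% were called in 1 library. Whether overlap went with calling was not tested. An overlap of 1 bp was enough. SOX2 region 6 and CTCF region 4 of the Ctcf window shared 112 bp, with summits 736 bp apart. The CTCF regions here had a median width of 1009 bp, against 608 bp for all, and the SOX2 regions 531 bp, against 658 bp. The part of width and density in the overlap was not tested. Gene ends, within 1 kb of a boundary of a protein-coding gene, held 6 of 23 CTCF regions (26.1%, against 14.3% of all) and 4 of 14 SOX2 regions (28.6%, against 18.1%).

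Ctcf and Ctcfl had more CTCF regions around them than most genes. The median protein-coding gene had 6 within 50 kb, and 17.8% of the 21887 had as many as the 11 of Ctcf, 13.6% as many as the 12 of Ctcfl. Per 100 kb of window this was 7.51 regions at Ctcf and 9.53 at Ctcfl, against a median of 3.93. For SOX2 the median was 4 regions, with 9 at Ctcf and 5 at Ctcfl. At least 1 SOX2 region called in mitotic replicate 1, as at Ctcf, was found in 17.4% of the windows.

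At the edge of the windows, the outermost CTCF region inside lay 39.2 kb from Ctcf and the first outside 59.3 kb, and 47.7 kb and 51.0 kb from Ctcfl. The first outside Ctcfl had folds of 3.82 and 5.15 and a call in 1 mitotic library. For SOX2 the distances were 39.5 and 61.1 kb at Ctcf and 39.8 and 71.4 kb at Ctcfl.

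Genes with related roles gave the setting. Of 14 genes of the loop machinery, which load, hold and release cohesin, 13 had a CTCF region within 50 kb and 9 had one called in both mitotic libraries, against 63.6% of all protein-coding gene windows. By region these were 15 of 92 in that list, with 3 of 13 at Cdca5, which protects cohesin from release, and 0 of 10 at Mau2, part of the cohesin loader. All 10 genes of CTCF partners and other architectural zinc fingers had at least 1, 22 of 100 regions in all. Among them were 4 of 13 at Ubtf, 3 of 13 at Chd8, 2 of 11 at Maz and 1 of 10 at Yy1. Of 12 germline genes 10 had at least 1, 16 of 73 regions in all, with 2 of 8 at Stra8, a meiosis gene, and 0 of 10 at Rec8, the meiotic cohesin subunit. The share of regions with a peak in each mitotic library was below the genome-wide 24.5% in all 3 lists, though 22 of 100 and 16 of 73 lay close to it. These differences were not tested. A SOX2 region called in both mitotic libraries was found at 1, 2 and 0 genes of the 3 lists, against 3.67% of all protein-coding gene windows.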

How the data were processed

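Peak lists of 8 ChIP-seq libraries were analysed, with groups taken from titles and treatments. The series has 86 samples, and those without a peak list were not analysed here. The tools named, per the submitters' processing notes, are MACS2 2.1.1.20160309, SAMtools, BWA 0.7.17 and CASAVA 1.4, with build mm10. What each did, and with which options, is not stated in the labels. The authors deposited lists called per library, with a fold enrichment (a ratio), −log10 p and −log10 q values, a score and the summit offset per peak. Fold is the authors' value and served only to describe or rank peaks within a list.

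Regions merged peaks of both asynchronous libraries that overlapped by at least 1 bp, and were called in a mitotic library on an overlap of 1 bp or more. Strength is the mean over both asynchronous lists of the percentile of the highest fold. Reads at a summit were solved from fold and −log10 p under MACS2's Poisson model and were whole within 0.01 reads for 99.9 to 100% of the peaks solved in each library. Depth is the lowest local background over the shortest peak. Shares have Wilson 95% intervals. Genes came from RefSeq on GRCm38.p6, with all members and list genes matched; Ctcfl has no entry in the promoter table.

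Named regions are those with a mitotic peak, those touching a member gene, and up to 3 strongest called in neither mitotic library per gene and factor. Other regions are described by their folds alone. Members and lists were chosen with earlier results of these data known. The settings varied were the threshold (−log10 q from 5 up), a 50% overlap, regions of either asynchronous library, windows of 10 and 100 kb, each library left out, and same-numbered libraries. Python 3.11.15, NumPy 2.4.6, pandas 2.3.3 and SciPy 1.17.1 were used, and the code was tested on simulated data.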

Additional observations from a re-analysis of the deposited data

How the results depend on the processing

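In the Ctcfl window the mean share of CTCF regions called in mitotic libraries (45.8%) went to 32.4% with regions of either asynchronous library, 75% in a 10 kb window, 63.2% in a 100 kb window and 38.1% with the replicate block, in which same-numbered libraries are compared. In the Ctcf window the SOX2 share (5.56%) went to 25% in a 10 kb window, which holds 2 regions. The cause was not tested. With each library left out in turn, the CTCF share ranged from 45.5 to 72.7% at Ctcf and from 36.7 to 50% at Ctcfl, the SOX2 share from 0 to 11.1% at Ctcf and from 0 to 0% at Ctcfl, and the CTCF minus SOX2 difference from 37.8 to 57.3 percentage points. The mitotic to asynchronous ratio of peak numbers then ranged from 0.370 to 0.519 for CTCF and from 0 to 0.0513 for SOX2. The SOX2 ratio (0.0256) was 0.111 in the 10 kb window, 0.0370 at a −log10 q of at least 5 and 0.0175 in the 100 kb window. The SOX2 share at Ctcf was 10% at that threshold and 2.94% with regions of either library. The pairing by replicate number rests on a shared number only: deviations of same-numbered libraries had a correlation of 0.00229 for CTCF and 0.0125 for SOX2. With the block the other values were 54.2% and 3.12% for CTCF and SOX2 at Ctcf, 0% for SOX2 at Ctcfl, ratios of 0.452 and 0.0217, and a difference of 43.1 points. Neither the ratios of peak numbers nor the CTCF minus SOX2 difference reversed direction under the alternatives run, and each permutation p was 0.333. The order of the genes did change: in the 10 kb and the 100 kb window the CTCF share at Ctcf was 50%, below that at Ctcfl. In the 50 kb window it was above, at 59.1% against 45.8%. SOX2 replicate 2 was the shallower library in both conditions, and its part in the SOX2 shares was not tested.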
